A study of Mus musculus with 346 samples.

Results

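The genes described here are the 3 fibrinogen chain genes Fga, Fgb and Fgg and the 3 serpin genes Serpina6, Serpinc1 and Serpind1. They were taken by name, and all 6 were found among the 20474 genes of the table, which covers 346 single cells. The cells were dissected from mouse embryos of the Tg(Prox1-EGFP) line, which expresses green fluorescent protein under the control of Prox1, a homeobox gene of the early liver and pancreas. Cells with green fluorescence were sorted singly into 96-well plates and read with Smart-seq2, which covers transcripts along their full length. Every group therefore carries the transgene (genotype Prox1-GFP) and was gated on it. The groups were the foregut at embryonic day (E) 8.5 (plate 1A, 82 cells), the liver at E10.5 (plate 5A, 78 cells), the ventral pancreatic bud at E10.5 (plate 3, 27 cells), the dorsal pancreatic bud at E10.5 (plate 2A with 48 cells and plate 2B with 38 cells) and the pancreas at E14.5 (plate 4A, 73 cells).

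Fibrinogen is a secreted plasma protein built of paired Aα, Bβ and γ chains, the products of Fga, Fgb and Fgg. Thrombin cuts it into fibrin, the mesh of a blood clot, and hepatocytes are its main source in the adult. Serpinc1 encodes antithrombin and Serpind1 encodes heparin cofactor II, both serpins that trap thrombin. Serpina6 encodes corticosteroid-binding globulin, a serpin that carries glucocorticoids in the blood and does not inhibit a protease.

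No animal is named for any cell, so each group counts as 1 sample, and values are given over cells without a test. Apart from the dorsal bud, each tissue came from 1 plate, so tissue and plate cannot be told apart. Recovered reads per cell ran from 510222 to 3431728, with a median of 2510704.5 in the liver and medians between 811359 and 1029064.5 on the other plates. A level here is the base-2 logarithm of normalized reads plus 1. Detection means 5 or more normalized reads, a level of 2.58 and above. The labelled tissues were mixed: Afp, the fetal serum protein of hepatoblasts, was at a level of at least 5 in 47 of 78 liver cells. Of the remaining 31, mesenchyme markers (at least 2) were found in 22 and cardiac markers (at least 2) in 12. Epcam, an epithelial adhesion gene, was detected in 25 of 27 ventral bud cells and 66 of 86 dorsal bud cells, but in 12 of 82 foregut cells, and at least 2 neural markers were detected in 60 of those 82. At E14.5, at least 2 mesenchyme markers were detected in 58 of 73 cells and Epcam in 10. Prox1 RNA was not detected in every sorted cell. It was found in 24 of the 73 cells at E14.5, 66 of 78 liver cells, 71 of 82 foregut cells and all 27 ventral bud cells. On the dorsal plates it was found in 46 of 48 and 37 of 38 cells.

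The 3 fibrinogen genes lie side by side on chromosome 3 in GRCm38, as annotated by GENCODE M21. Fgg spans chr3:83007724-83015049 on the plus strand, Fga chr3:83026076-83033627 on the plus strand and Fgb chr3:83040141-83049863 on the minus strand, with gaps of 11026 bases between Fgg and Fga and 6513 bases between Fga and Fgb. The serpin genes lie apart, Serpina6 at chr12:103646630-103657212 on the minus strand, Serpinc1 at chr1:160978585-161005863 on the plus strand and Serpind1 at chr16:17331371-17343575 on the plus strand. The start regions of the 3 chains are shown, 250 bases before to 50 after each RefSeq start on GRCm38.p6, 5′ to 3′ on the gene's own strand. The windows are chr3:83025903-83026202 (plus strand) for Fga, chr3:83049814-83050113 (minus strand) for Fgb and chr3:83007474-83007773 (plus strand) for Fgg. Capitals mark matches to the motifs searched.
Fga: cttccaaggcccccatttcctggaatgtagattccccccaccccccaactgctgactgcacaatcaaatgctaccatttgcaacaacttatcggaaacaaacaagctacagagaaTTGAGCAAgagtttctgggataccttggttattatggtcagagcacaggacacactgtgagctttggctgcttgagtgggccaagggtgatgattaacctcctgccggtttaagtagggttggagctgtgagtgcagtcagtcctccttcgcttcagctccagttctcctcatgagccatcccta
Fgb: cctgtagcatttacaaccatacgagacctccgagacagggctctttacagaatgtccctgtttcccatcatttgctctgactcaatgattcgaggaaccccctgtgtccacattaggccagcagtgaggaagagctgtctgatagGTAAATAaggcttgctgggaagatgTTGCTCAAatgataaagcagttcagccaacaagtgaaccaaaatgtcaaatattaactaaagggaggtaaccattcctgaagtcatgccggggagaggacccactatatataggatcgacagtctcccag
Fgg: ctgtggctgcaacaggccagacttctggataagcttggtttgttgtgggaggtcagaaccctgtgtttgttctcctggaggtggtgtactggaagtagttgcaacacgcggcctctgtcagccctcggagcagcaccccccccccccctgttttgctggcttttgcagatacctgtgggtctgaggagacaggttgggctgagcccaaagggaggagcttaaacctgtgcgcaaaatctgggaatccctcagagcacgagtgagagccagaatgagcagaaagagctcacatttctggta

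The motifs, searched on both strands, were TTGCNNAA (C/EBP), and TGTTTAC and TATTTAC (FOXA). They occur in 10.8%, 3.65% and 3.04% of the 32851 RefSeq windows of the same length. Counting the start base as 0, the Fga window holds a C/EBP match on the other strand, TTGAGCAA, from -135. The Fgb window holds a C/EBP match, TTGCTCAA, from -80 and GTAAATA, a FOXA match on the other strand, from -105. None of these letters stand in the Fgg or the Serpind1 window, and the Serpinc1 window holds 1 C/EBP match, TTGCGTAA, from 4. A match is a description of the letters, and Serpina6 has no window in the table used. The search left out GTTAAT, a motif of HNF1. Its letters on the other strand, ATTAAC, stand in lower case in the Fga and Fgb windows shown. How often GTTAAT occurs in the RefSeq windows was not counted, so the capitals are not a full search for motifs of liver factors.

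In the liver, all 6 genes were present in the cells with Afp and detected in none of the cells without it. Fgb was detected in 47 of 78 liver cells (60.3%, exact 95% interval 48.5% to 71.2%), Fgg in 46 (58.97%), Serpina6 in 45 (57.7%), Serpinc1 and Serpind1 in 40 each (51.3%) and Fga in 37 (47.4%). In the 47 liver cells with Afp at 5 or more the shares were 47 of 47 for Fgb, 46 for Fgg, 45 for Serpina6, 40 for Serpinc1, 40 for Serpind1 and 37 for Fga. In the 31 liver cells with Afp below 5, each gene was detected in 0 cells, which allows a share of up to 9.68%, and the few reads found there gave levels of at most 1.26.

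**Figure D1:**
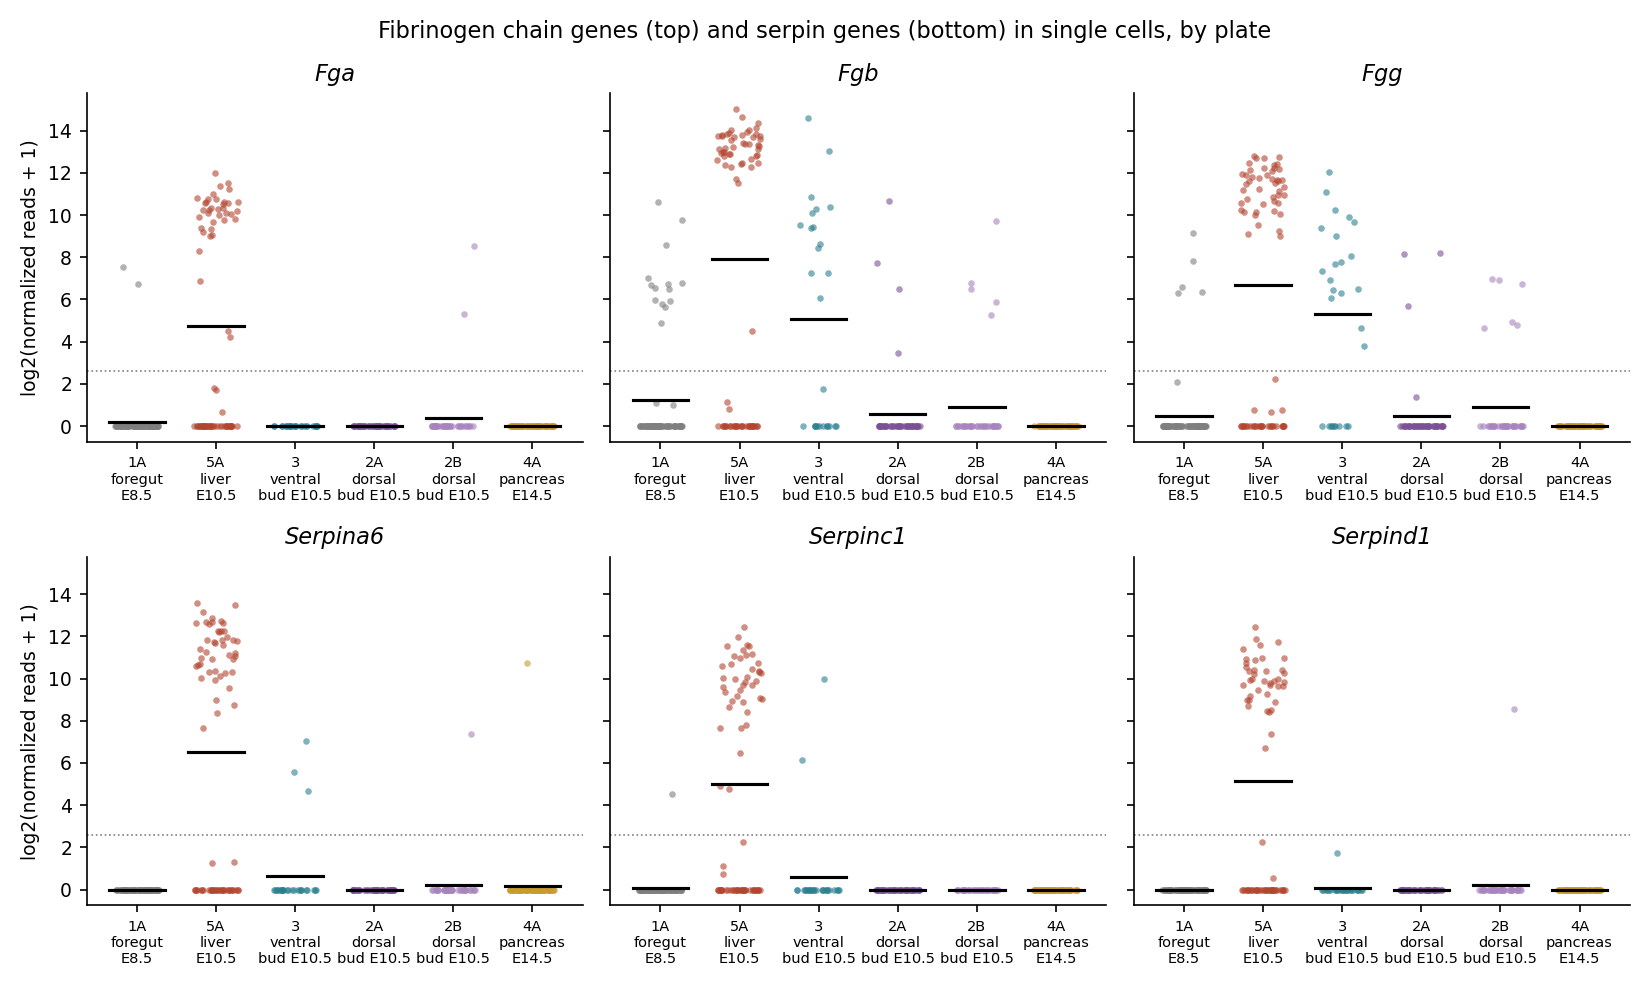
Level of each gene, as log2(normalized reads + 1), in every cell of each plate. Points are cells, black bars are means over all cells of a plate, and the dotted line is the limit of detection. The liver plate splits into cells near 0 and cells up to 15.01 for Fgb, Fgb and Fgg are also spread over the ventral bud, and the E14.5 plate has 1 point off 0, for Serpina6.

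Apart from 1 cell, levels in the Afp cells of the liver were narrow for Fgb and Fgg, and wider for the other genes where detected. Fgb ran from 4.50 over a median of 13.28 to 15.01 and averaged 13.08 ± 1.46 (SD, n = 47 cells). Fgg ran from 2.25 over 11.48 to 12.79 and averaged 11.07 ± 1.66. One cell stood apart from the other 46, with Afp at 6.57, Fgb at 4.50 and Fgg at 2.25, while the lowest Fgb of the others was 11.54 and their lowest Fgg was 9.004. Without it, Fgb averaged 13.27 ± 0.72 and Fgg 11.26 ± 1.01 (n = 46). Where detected, the SD was 1.17 for Serpind1, 1.35 for Serpina6, 1.62 for Fga and 1.71 for Serpinc1.

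Fga, the gene of the chain that carries fibrinopeptide A, was under the limit of detection in 10 of the 47 cells, and where detected it ran from 4.199 over 10.23 to 12 (n = 37). Serpina6 ran from 7.65 over 11.40 to 13.57 in the 45 cells that had it. Serpinc1 ran from 4.75 over 9.95 to 12.43 in 40 cells, and Serpind1 from 6.69 over 9.92 to 12.44 in 40 cells. In the liver the lowest detected value lay above a level of 5 for Fgg, Serpina6 and Serpind1 and under it for Fga, Fgb and Serpinc1.

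Per kilobase of its longest annotated transcript, the order of medians in the Afp cells was Fgb (2602 normalized reads per kb), Fgg (1642), Serpina6 (1510), Serpind1 (398.5), Fga (392.7) and Serpinc1 (165.9). Within single cells Fgb lay above Fga in 37 of 37 cells that had both, by 2.78 ± 1.81 on the log2 scale per kb. Fgb lay above Fgg in 41 of 46 cells, by 0.88 ± 1.00, so the mean difference was smaller than its SD over cells. Fgg and Serpina6 were not separated, since Fgg was the higher in 20 of 45 cells and the mean difference of -0.16 ± 1.59 lay within the spread. The Serpinc1 value rests on a transcript of 4970 bases, and 2942 exon bases of Serpinc1 are shared with Zbtb37 on the other strand, which was detected in 3 of these 47 cells.

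The chains formed a nested order in the liver. Fga was found in no liver cell without Fgb and Fgg: 37 cells had all 3 chains, 9 had Fgb with Fgg, 1 had Fgb alone and 31 had none. All 3 serpins were found in 36 cells, a pair of them in 7 (Serpina6 with Serpind1 in 4 and with Serpinc1 in 3), a single one in 3 and none in 32. Of the 37 cells with all 3 chains, 31 had all 3 serpins as well, and of the 9 cells with 2 chains, 5 did. No liver cell had a serpin without at least Fgb and Fgg.

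**Figure D2:**
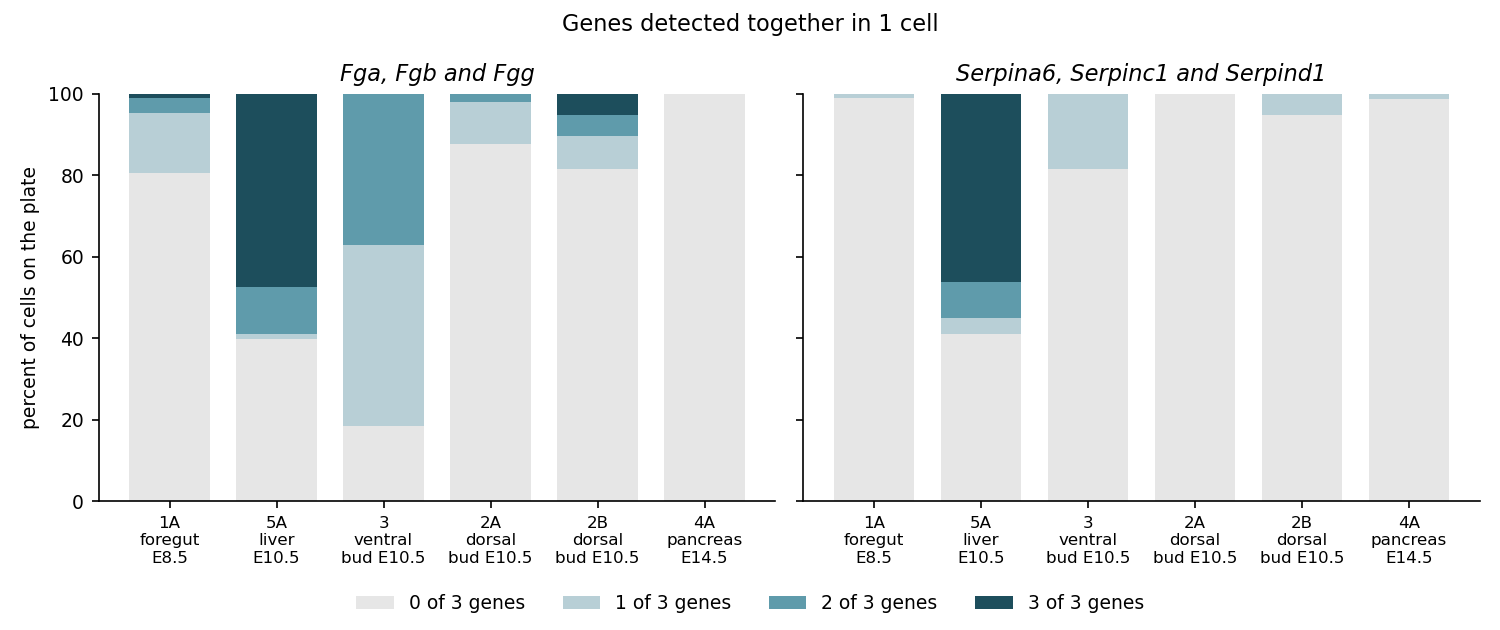
Percent of cells on each plate with 0, 1, 2 or 3 of the fibrinogen chain genes (left) and of the serpin genes (right). All 3 chains were found in 37 of 78 liver cells and 0 of 27 ventral bud cells, where 10 cells had 2 chains and 12 had 1.

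Among liver cells that had both genes of a pair, Fgb and Fgg had the highest rank correlation of the 15 pairs. The rank correlation (Spearman) between Fgb and Fgg was 0.47 over 46 cells, between Fga and Fgb -0.23 over 37, between Fgb and Serpina6 0.07 over 45 and between Serpinc1 and Serpind1 0.11 over 36. These cells share 1 plate and the normalization, and the correlation of Fga with total reads was 0.47 over its 37 cells, against -0.17 for Fgb in the same cells.

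The 10 Afp cells of the liver without Fga still held Fgb and Fgg, apart from the cell named above. Over the other 9, Fgb lay between 12.81 and 15.01 and Fgg between 9.10 and 12.73. Alb, the albumin gene, was detected in 8 of the 10 cells without Fga and 35 of the 37 with it. F2, the prothrombin gene, was detected in 4 of 10 cells without Fga and 31 of 37 with it, Serpina10, the gene of a serpin that acts on factor Xa with protein Z, in 2 of 10 and 24 of 37, and Cebpa, a regulator of hepatocyte genes, in 0 of 10 and 11 of 37. Median reads were 2175480 in the cells without Fga and 2707214 in those with it, and the part of depth in these counts was not tested.

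Against the dorsal bud, all 6 genes were higher in the liver by at least 1 in mean log2 level over all cells, as were 6.89% of the 9608 genes with a mean of at least 1 in either group. The differences were 7.18 for Fgb, 6.46 for Serpina6, 6.02 for Fgg, 5.02 for Serpinc1, 5.03 for Serpind1 and 4.56 for Fga, where the median gene differed by -1.10. All 6 passed the filter on mean level through the liver alone, with dorsal bud means of at most 0.73, so their direction was fixed by the filter and nothing is read from the count. Of all genes tested, 54.4% were lower in the liver by at least 1. Fgb averaged 7.91 ± 6.51 in 78 liver cells and 0.73 ± 2.24 in 86 dorsal bud cells, where the liver SD spans cells with and without it. Serpinc1 averaged 5.02 ± 4.98 in the liver and was listed at 0 in all 86 dorsal bud cells, which allows a share of up to 6.25% on plate 2A and 7.89% on plate 2B.

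Against the ventral bud, all 6 genes were again higher in the liver by at least 1, as were 11.4% of the 8298 genes tested, and the sizes differed widely between them. Differences were 5.90 for Serpina6, 5.06 for Serpind1, 4.72 for Fga and 4.42 for Serpinc1, but 2.83 for Fgb and 1.41 for Fgg, with a median gene at -0.49. Fga, Serpina6, Serpinc1 and Serpind1 passed the filter through the liver alone, so their direction was fixed, while Fgb and Fgg had means over 1 in both groups. Of all genes tested, 29.6% were lower in the liver by at least 1. Scaled by total reads in place of the authors' size factors, the Fgg difference was 0.99, under the limit of 1.

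The ventral bud held Fgb and Fgg without Fga. Fgg was detected in 18 of 27 cells (66.7%, 46.04% to 83.5%) and Fgb in 14 (51.9%, 31.95% to 71.3%), while Fga had no read in any of the 27 cells, which allows a share of up to 11.1%. Fgg averaged 5.29 ± 4.21 and ran from 3.79 over 7.75 to 12.02 in the cells that had it. Fgb averaged 5.08 ± 5.12 and ran from 6.08 over 9.49 to 14.58 in its 14 cells. In 10 cells both were present, 8 had Fgg alone, 4 had Fgb alone and 5 had neither.

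Among the serpins, Serpina6 was detected in 3 ventral bud cells at 4.69, 5.57 and 7.05, Serpinc1 in 2 cells at 6.13 and 9.99, and Serpind1 in 0 cells, with 1 cell at 1.73. These Serpina6 levels lay below the lowest of the liver cells that had it (7.65). No ventral bud cell held 2 of the serpins. The cell with Serpinc1 at 9.99 was the one ventral bud cell with Alb, at 9.40, and had Fgb at 10.40 and Fgg at 9.90.

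Fga was thus seen in 0 of 14 ventral bud cells with Fgb (exact 95% interval up to 23.2%) and in 37 of 47 liver cells with Fgb (78.7%, 64.3% to 89.3%). The levels of Fgb in those cells differed, with a mean of 9.67 ± 2.23 in the ventral bud and 13.08 ± 1.46 in the liver. Where every cell was thinned to 500000 reads, 37 of 78 liver cells and 0 of 27 ventral bud cells still had an Fga read. Fgb reads were left in 49 liver cells and 15 ventral bud cells. Any read was counted after thinning, a lower limit than detection, so these counts are not on the same limit as 47 and 14.

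**Figure D3:**
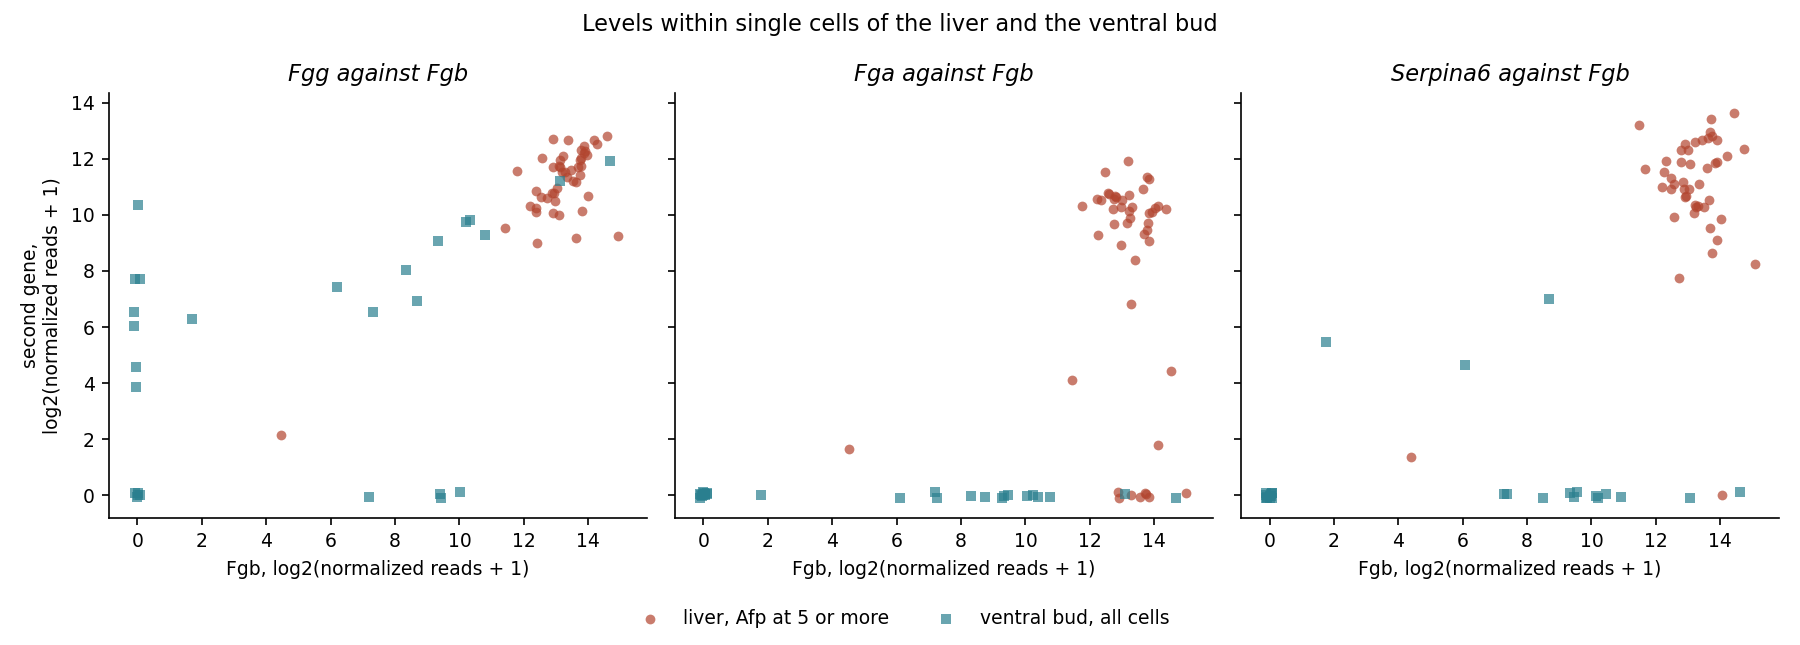
Level of Fgg, Fga and Serpina6 (vertical axes) against Fgb (horizontal axes) in single cells, as log2(normalized reads + 1), with a small random offset so that points at 0 can be seen. Circles are the 47 liver cells with Afp at 5 or more and squares the 27 ventral bud cells. In the 10 ventral bud cells with both chains Fgg tended to be higher where Fgb was higher (rank correlation 0.90), and Fga is at 0 in all 27 squares.

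In the 10 ventral bud cells with both chains, Fgb and Fgg had a rank correlation of 0.90, over a range of Fgb from 6.08 to 14.58. Per kb of the longest annotated transcript, Fgb lay above Fgg in 4 of 10 cells, with a mean difference of -0.21 ± 1.08. This rests on lengths of 3810 bases for Fgb and 1741 for Fgg. The transcript lengths in these cells were not measured, so which chain was the higher is not settled.

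In 3 ventral bud cells Afp was at least 11, at 12.47, 12.64 and 12.75. Their Fgb levels were 14.58, 10.30 and 13.02 and their Fgg levels 12.02, 9.69 and 11.08, in the same cell order, so that 2 of the 3 lay within the range of the 46 liver cells for both genes. Fga, Serpina6, Serpinc1, Serpind1 and Alb had no read in any of the 3. Over the other 24 ventral bud cells, Fgb was detected in 11 (mean 4.13 ± 4.56) and Fgg in 15 (4.59 ± 3.90). The liver differences were 3.78 for Fgb and 2.11 for Fgg against these 24 cells.

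Fgb and Fgg were also higher in the ventral than in the dorsal bud. Fgb averaged 5.08 ± 5.12 in 27 ventral and 0.73 ± 2.24 in 86 dorsal bud cells, a difference of 4.35, and Fgg averaged 5.29 ± 4.21 and 0.68 ± 2.00, a difference of 4.61. Of the 9572 genes tested, 3.88% were higher by at least 1 and 37.2% lower, and the median gene differed by -0.71. Fgb and Fgg passed the filter through the ventral bud alone, so their direction was fixed, and the other 4 members had means under 1 in both buds and were not counted. The ventral bud differed by 4.49 for Fgb and 4.80 for Fgg from plate 2A alone, by 4.18 and 4.37 from plate 2B alone, and by 3.41 and 3.91 from all dorsal bud cells when the 3 cells with high Afp were left out.

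Ventral bud cells with Pdx1, the regulator of pancreas development, had no Fgb, and 6 of these 8 cells held Fgg. The other 2 ventral bud cells with Fgg alone had Pdx1 below 5. Pdx1 was at a level of at least 5 in 8 ventral bud cells, at 6.23 or more, and at 1.14 or less in the other 19. Fgb was detected in 0 of 8 cells with Pdx1 (exact 95% interval up to 36.9%) and 14 of 19 cells without it (73.7%, 48.8% to 90.9%). Fgg was detected in 6 of 8 cells with Pdx1 (75%, 34.9% to 96.8%) and 12 of 19 without it (63.2%, 38.4% to 83.7%).

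In the 8 Pdx1 cells Fgg stood at 0, 0, 3.79, 4.66, 6.50, 7.70, 7.80 and 10.23, and Fgb had no read in any of them. The mean of Fgg was 5.08 ± 3.71 in Pdx1 cells and 5.38 ± 4.49 in the others, a difference of -0.30, within the spread. The same difference was 0.74 without the 3 cells with high Afp and -1.95 with any Pdx1 read as the limit, so its sign is not fixed. The mean of Fgb was 0 in Pdx1 cells and 7.21 ± 4.64 in the others, a difference of -7.21, where 20% of the 8997 genes tested were lower in Pdx1 cells by at least 1, 29.6% were higher and the median gene differed by 0.24. Fgb, through the cells without Pdx1, and Fgg were the members that passed the filter on mean level, and no member was called higher.

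Each of the 10 cells with both chains was among the 19 without Pdx1. Afp moved with this split: it was detected in 2 of 8 Pdx1 cells, at 6.30 and 7.62, and in 17 of the 19 others. Ttr, the transthyretin gene, was detected in 7 of the 8 and 18 of the 19. Sox17, a regulator of the bile duct lineage, was at 8.06 or more in 11 of the 19 cells and without a read in the others and in all Pdx1 cells. Of the 11 Sox17 cells 9 had Fgb, 9 had Fgg and 7 had both, and the 3 ventral bud cells with Serpina6 were among them. Of the 8 cells without Pdx1 and Sox17, 5 had Fgb and 3 had Fgg. The part of Afp and of these cell states in the Fgb difference was not tested.

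**Figure D4:**
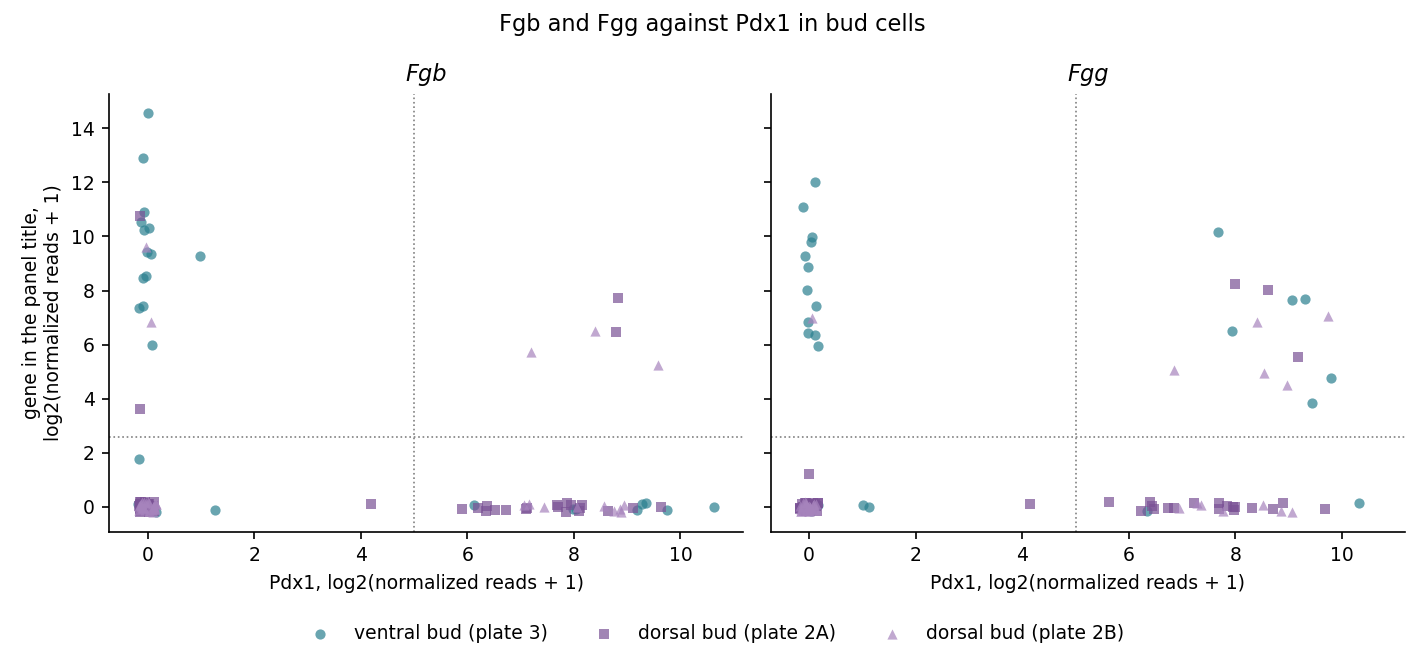
Level of Fgb (left) and Fgg (right) against Pdx1 in bud cells, as log2(normalized reads + 1), with a small random offset. The vertical dotted line marks a Pdx1 level of 5 and the horizontal one the limit of detection. Ventral bud cells with Pdx1 lie at 0 for Fgb, while 6 of the 8 lie above the limit for Fgg.

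In the dorsal bud the chains were rare. Fgb was detected in 4 of 48 cells on plate 2A (8.33%, 2.32% to 19.98%) and 5 of 38 on plate 2B (13.2%, 4.41% to 28.1%), Fgg in 3 (6.25%) and 6 (15.8%), and Fga in 0 and 2 (5.26%). Levels were 3.45, 6.51, 7.72 and 10.67 for Fgb on plate 2A and between 5.24 and 9.72 on plate 2B. All 13 dorsal bud cells with a chain had Epcam, and none of the 20 dorsal bud cells without Epcam had a member, which allows a share of up to 15%.

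Of the 33 dorsal bud cells with Pdx1 at 5 or more 8 had Fgg (24.2%, 11.1% to 42.3%), and of the 53 others 1 did (1.89%, 0.05% to 10.1%). Fgg averaged 1.52 ± 2.81 in Pdx1 cells and 0.16 ± 0.97 in the others, a difference of 1.36, where 9.42% of the 9921 genes tested were higher in Pdx1 cells by at least 1 and 11.2% lower. Fgg passed the filter through the Pdx1 cells alone, the other 5 members had means under 1 on both sides, and the Fgg difference was 0.69 with a pseudocount of 10. Other cell types moved with this split. Epcam was detected in 33 of 33 Pdx1 cells and 33 of 53 others, the mesenchyme genes Pdgfra and Col3a1 in 0 Pdx1 cells and in 19 and 22 of the others, and the endocrine gene Isl1 in 4 Pdx1 cells and 38 of the others. Since all cells with Fgg had Epcam, Fgg was found in 8 of 33 Pdx1 cells and 1 of 33 other cells among those with Epcam. The part of the endocrine cells in the Fgg difference was not tested. The order was the same on each plate, with Fgg in 3 of 21 Pdx1 cells and 0 of 27 others on plate 2A, and in 5 of 12 Pdx1 cells and 1 of 26 others on plate 2B. Fgb was detected in 5 of 33 Pdx1 cells and 4 of 53 others, intervals of 5.11% to 31.9% and 2.10% to 18.2% that overlap.

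All 3 chains were found in 2 dorsal bud cells, both on plate 2B. One had Pdx1 at 9.59, with Fga at 5.33, Fgb at 5.24 and Fgg at 6.93. The other had no Pdx1 read, with Fga at 8.53, Fgb at 9.72, Fgg at 6.98 and Serpina6 at 7.38, the one dorsal bud cell with Serpina6. Serpind1 was detected in 1 dorsal bud cell, at 8.57, which had Pdx1 at 7.02, Fgb at 5.87 and Fgg at 4.92.

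In the foregut at E8.5, Fgb was detected in 14 of 82 cells (17.1%, 9.66% to 26.98%), Fgg in 5 (6.10%, 2.01% to 13.7%), Fga in 2 (2.44%), Serpinc1 in 1 at 4.52, and Serpina6 and Serpind1 in 0, which allows shares of up to 3.66%. The foregut cells with chains included both epithelial cells and cells without Epcam. Ttr was detected in 7 cells, all of which had Epcam: 5 of them had Fgb, at 5.91, 6.67, 8.59, 9.76 and 10.63, and 4 had Fgg, at 6.32, 6.34, 7.83 and 9.15. Of these, the cell with Fgb at 9.76 also had Fga at 6.73.

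In the 70 foregut cells without Epcam, Fgb was detected in 9 (12.9%, 6.05% to 23.01%), at 7.01 or less, and Fgg and Fga in 1 each. Of the 52 foregut cells with Rfx4, a regulator of neural tube development, 7 had Fgb. Afp was detected in 4 of the 14 foregut cells with Fgb and 0 of the 68 without it. Against the foregut, Fgb was higher in the ventral bud by 3.86 and Fgg by 4.83, where 4.95% of the 9725 genes tested were higher by at least 1 and 55.1% lower, and the other 4 members had means under 1 in both. Fgg, with a foregut mean of 0.47, passed the filter through the ventral bud alone, so its direction was fixed. Fgb had a foregut mean of 1.21 and passed on both sides. Stage, tissue and plate cannot be told apart in this comparison.

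At E14.5 no cell of 73 had a read of Fga, Fgb, Fgg, Serpinc1 or Serpind1, which allows a share of up to 4.11% for each. Serpina6 was detected in 1 cell, at 10.74, which had Afp at 8.49 and Pdx1 at 5.14 and no Alb read. No member had a mean of at least 1 in the E14.5 pancreas or the dorsal bud, so none was counted in that comparison, in which 4.52% of genes were higher and 53.9% lower.

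Other clotting genes were counted from a list that leaves out the 6 members. Serpinc1 and Serpind1, which trap thrombin, are thus not among its anticoagulant genes. Of a list of 35, 25 genes were in the table. Against the dorsal bud, 14 of them had a mean of at least 1 on either side: 8 were higher in the liver by at least 1 and 1, Tfpi, the inhibitor of the tissue factor pathway, was lower, with a median of 2.07 beside -1.10 over all genes tested, of which 6.89% were higher. Against the ventral bud 10 of 13 were higher in the liver and 0 lower, with a median of 1.82 beside -0.49 over all genes, of which 11.4% were higher. Split by role, 4 of 5 procoagulant and 3 of 5 fibrinolysis genes tested were higher in the liver than in the dorsal bud and 0 lower. Of the 4 anticoagulant genes tested, 1 (Serpina10) was higher and 1 (Tfpi) lower, with a median of 0.58, and against the ventral bud 1 of 4 (Serpina10) was higher, with a median of 0.52. Among the list genes called higher in the liver, only Serpinf2 had a mean of at least 1 in the dorsal bud too. Only Serpinf2 and F2 had one in the ventral bud. The others passed the filter through the liver alone, and Tfpi, lower in the liver, through the dorsal bud alone. Their direction was fixed by the filter, and nothing is read from their count. Tfpi averaged 0.86 in the liver, 1.64 on dorsal plate 2A and 2.84 on dorsal plate 2B. It was thus lower in the liver by at least 1 only against plate 2B. In the ventral bud 2 of 5 list genes tested were higher than in the dorsal bud and 2 lower (Plat by -1.50 and A2m by -1.01), with a median of -0.94 against -0.71. F2 passed this filter through the ventral bud alone and Plat and A2m through the dorsal bud alone, so their direction was fixed. The 2 dorsal plates differed for both Plat and A2m. A2m averaged 1.80 on plate 2A and 0 on plate 2B, beside 0 in the ventral bud. Plat averaged 1.13 on plate 2A and 2.83 on plate 2B, beside 0.38 in the ventral bud. A2m was thus lower by at least 1 only against plate 2A, and Plat only against plate 2B.

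Among the clotting factors, F2 was detected in 35 of 47 liver cells with Afp and 7 of 27 ventral bud cells, F10, the gene of factor X, in 30 and 3, and Kng1, the gene of kininogen, in 31 and 0. Of the genes that act on the clot, Plg, the gene of plasminogen, was detected in 29 and 0 and Cpb2, the gene of a carboxypeptidase that slows fibrin breakdown, in 25 and 2. Serpinf2, the gene of the plasmin inhibitor α2-antiplasmin, was detected in 47 of 47 liver Afp cells and 16 of 27 ventral bud cells. Serpinf2 and F2 were the 2 list genes higher in the ventral than in the dorsal bud, by 2.82 and 1.57. At E14.5, 5 list genes were tested against the dorsal bud, and 3 were higher and 1 lower, where 4.52% of all genes were higher and 53.9% lower. The lower one was Serpinf2, by -1.72. The higher ones were Pros1, the gene of protein S, by 3.97, Plat, the tissue plasminogen activator gene, by 1.34, and Tfpi by 1.16. Pros1 passed the filter through the E14.5 pancreas alone and Serpinf2 through the dorsal bud alone, so their direction was fixed. For Plat and Tfpi the dorsal plates differed, with means of 1.13 and 1.64 on plate 2A and 2.83 and 2.84 on plate 2B. At E14.5 the means of Plat and Tfpi were 3.22 and 3.33, so neither was higher by 1 than on plate 2B.

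**Figure D5:**
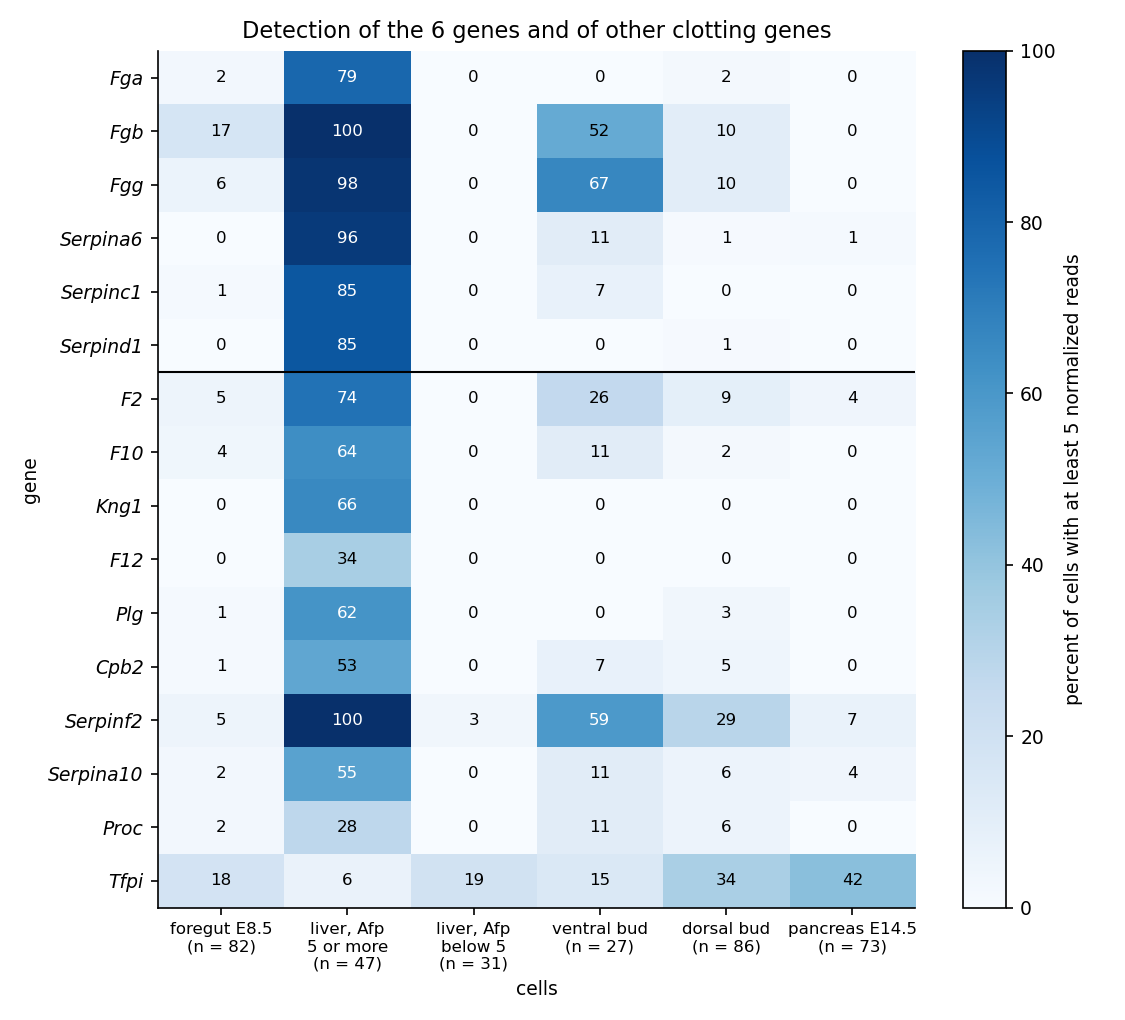
Percent of cells in which each gene was detected, for the 6 members (above the line) and 10 other clotting genes (below it), in 6 sets of cells. The liver cells with Afp hold the highest share for 15 of the 16 genes, and the share of Tfpi there was 3 of 47 cells.

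Of 19 other serpin genes 12 were in the table. Of the 10 with a mean of at least 1 on either side, 6 were higher in the liver than in the dorsal bud and 2 lower (Serpini1 by -1.40 and Serpinb6a by -1.51), with a median of 1.66. The 6 were 5 copies of the α1-antitrypsin gene, Serpina1a to Serpina1e, and Serpinf1, the gene of pigment epithelium-derived factor. The 5 copies are near identical and their reads may have been split between them, so each value is uncertain. In this comparison 6.89% of all genes were higher and the median gene stood at -1.10. Serpina1a, Serpina1c and Serpina1d passed the filter through the liver alone, and Serpini1 and Serpinb6a through the dorsal bud alone, so their direction was fixed. Set against the dorsal bud, the ventral bud had 7 of 10 higher and 1 lower, with a median of 1.54, beside 3.88% of all genes higher and a median gene at -0.71. Serpina1a, Serpina1c and Serpina1d passed here through the ventral bud alone, and Serpini1, the lower one, through the dorsal bud alone. Against the ventral bud, 3 of 9 were higher in the liver (Serpina1a, Serpina1b and Serpina1d) and 0 lower, with a median of -0.22, beside 11.4% of all genes higher and a median gene at -0.49.

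Among regulators of liver and pancreas genes, Hnf4a was detected in 26 of 47 liver cells with Afp and 5 of 27 ventral bud cells, and Cebpa in 11 and 3. Onecut1 was detected in 6 of the 47 and 17 of the 27, and Foxa2 in 13 and 20.

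Over all 346 cells, the genes whose levels were most like the mean of the 3 chains were Apoa2 (Pearson 0.91), Afp (0.91), Apoa1 (0.89), Apom (0.89), Itih2 (0.88) and Trf (0.88), out of 8596 genes compared. For the mean of the 3 serpins they were Apoa1 (0.93), Alb (0.92), Apoa2 (0.88), Trf (0.87), Afp (0.86) and Serpina1a (0.85). The members themselves were left out of these rankings. Among genes that are no members, Fgb was most like Afp (0.89) and Fgg most like Apoa2 (0.87), while Fga was most like Apoa1 (0.81) and Alb (0.81). The chains correlated with each other at 0.89 for Fgb with Fgg, 0.74 for Fga with Fgb and 0.74 for Fga with Fgg, and Fga with Serpina6 at 0.86. These correlations span all 6 plates, which differ in depth, and the liver plate holds most cells with these genes.

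Plrg1, a splicing factor gene 5658 bases beyond Fgb, was detected in 77 of 82 foregut cells, 32 of 78 liver cells, 10 of 27 ventral bud cells, 61 of 86 dorsal bud cells and 27 of 73 cells at E14.5. Serpina10, which lies 15185 bases from Serpina6, was detected in 26 of 47 liver cells with Afp, 0 of the 31 other liver cells, 3 ventral bud cells and 5 dorsal bud cells.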

How the data were processed

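Each sample is 1 sorted cell, grouped by its title, and all 346 columns were matched by their description. The authors deposited 1 table of log2 values, and its empty entries (76.7%) were set to 0. The tools named are STAR 2.5.3, Cufflinks and Cuffdiff 2.2.1, and the build is GRCm38, all per the submitters' processing notes. How reads were counted, by which annotation, with what regard to strand, and with which size factors and filters is not given in the sources used here. Undoing the log2 gave whole reads, within 0.01, for 1647510 of 1647530 values after 1 factor per cell, so the deposited values are read as log2(reads / size factor + 1).

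With 1 sample a group, no count test was run and no p is given. Means and SDs are over cells. A gene was counted in a comparison with a mean of at least 1 in either group, and called with a difference of at least 1. Shares carry exact Clopper-Pearson 95% intervals, and 0 of n allows a share of 3 / n. Both cover counting error only, since PCR reads are not independent molecules. All cells had at least 2000 genes and 500000 reads, to which reads were thinned (seed 1). No 2 cells had identical values.

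The members, lists and most cell sets were chosen with earlier results of these data known. Named genes are the members, up to 6 of each list with the highest liver mean, regulators, of which some are not reported here, and the 6 genes most correlated with each member or with the chains or serpins. Genes named for the mixture of cells, the neighbours, Tfpi, Pros1, Plat, A2m, Serpini1, Serpinb6a and the lower α1-antitrypsin copies, Proc and the splits by Epcam, Ttr, Sox17 and Rfx4 were added after their values were seen. Transcript lengths are those of the longest coding transcript in GENCODE M21, and start regions are RefSeq windows, found for 5 of the 6 members. The steps were tested on simulated data. Alternatives were other limits of detection, Pdx1 limits and pseudocounts, scaling by total reads, thinned reads, each dorsal plate alone and no filter on low values. Another 2, chosen after seeing the data, left out the liver cell with Afp between 5 and 10 or the ventral bud cells with Afp at 11 or more. Tools were python 3.11.15, numpy 2.4.6, pandas 2.3.3, scipy 1.17.1 and matplotlib 3.10.9.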

Additional observations from a re-analysis of the deposited data

How the results depend on the processing

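No paired analysis was possible because each group is 1 sample and no test was run. Shares of cells stayed within the interval of the reported share in 255 recomputed values. The 1 exception was Serpinc1 in the foregut, 0% with a limit of detection at a level of 5. All 186 recomputed differences moved by less than the SD over cells, a wide limit where a group mixes cells with and without a gene. Within it, the Fgg difference between ventral bud cells with and without Pdx1 changed sign. The count of members called kept within 1.5 times in 58 cases and moved further in 4. In the dorsal bud, with a pseudocount of 10, 0 members were higher in Pdx1 cells, against 1 as reported (Fgg). In the ventral bud, 1 member was lower in Pdx1 cells as reported (Fgb). It was 2 with a pseudocount of 0.1 and 2 without the cells with Afp at 11 or more, with Serpina6 added at -1.43 and -1.08. It was 3 with any Pdx1 read as the limit, where Serpina6 stood at -1.02 and Fgg at -1.95. The cause of these changes was not tested. Scaled by total reads, 5 members were called higher in the liver than in the ventral bud, all but Fgg. The share of all genes called was not recomputed under these settings. Nothing is therefore read from these counts of members. With no filter on low values the percent of genes called fell by more than 1.5 times in all 10 cases (3.23% for higher in the liver than in the dorsal bud), since genes near 0 were added. The limit of 2000 genes left out no cell. The 8 ventral bud cells with Pdx1 and the 27 in all limit what shares there can show.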
